A study of Mus musculus with 12 samples.

Results

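The genes described here are 32 genes of mitochondrial fatty acid β-oxidation and of the acyl-CoA steps next to it. They were chosen by their symbols in the deposited count table, with earlier results of these data known. All 32 were found once each among its 39017 genes. RNA came from 12 mouse lung tumors (9 mice; 4 groups with 3 tumors each) from which cells with the immune marker CD45 had been removed. The values therefore come from tumor cells and from the other non-immune cells of each tumor, and fewer cells of a type cannot be told apart from less RNA per cell. Reads counted per gene summed to between 25263794 and 32654223 per tumor.

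All mice had a C57BL6/J background (C57BL/6 in the strain label), *Trp53* Fl/Fl, and CCSP-rtTA, a transgene that makes the doxycycline-dependent activator rtTA from the promoter of club cell secretory protein. KPG1 mice were also Fl/Fl for *Slc2a1*, which encodes the glucose transporter Glut1, where KP mice were wt/wt. Every mouse, controls included, received 6000 lentiviral units of one vector into the trachea. The vector carries Cre, which starts the tumors, and PPARαΔ13, a dominant negative form of the receptor PPARα, behind a promoter that needs both rtTA and doxycycline. Mice of the groups KP-PPARαΔ13 and KPG1-PPARαΔ13 were fed doxycycline (625 mg per kg of diet, 15 days) and those of KP and KPG1 a regular diet, so diet and induction cannot be told apart. Tumors were taken 26 weeks after initiation. By a number in the labels that appears to name the mouse, the tumors came from 2 KP, 3 KP-PPARαΔ13, 2 KPG1 and 2 KPG1-PPARαΔ13 mice. By this number KP tumors 1 and 2 shared a mouse, as did KPG1 tumors 1 and 2 and KPG1-PPARαΔ13 tumors 1 and 3, and p-values partly measure the spread between tumors of one mouse. The KP tumors were all from females and the KPG1 tumors all from males, so genotype and sex cannot be told apart there. KP-PPARαΔ13 had 2 tumors from males and 1 from a female, and KPG1-PPARαΔ13 had 1 and 2. Where sex is used as a covariate below, its effect was therefore estimated from the doxycycline-fed groups alone and carried over to KP and KPG1.

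In β-oxidation, a fatty acid joined to coenzyme A enters the mitochondrion through the carnitine shuttle and is then shortened in repeated rounds of dehydrogenation, hydration, a second dehydrogenation and thiolysis. Each round releases acetyl-CoA and passes electrons to the respiratory chain, partly through the electron transfer flavoprotein, and chains with an odd number of carbons end in propionyl-CoA. PPARα is a nuclear receptor that fatty acids activate and that turns on many of these genes in liver and heart. Alveolar type 2 cells, the surfactant-producing cells of the lung from which such tumors can start, use fatty acids both as fuel and for surfactant lipid.

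The genes that the design changes were looked at first. Reads of the PPARαΔ13 transgene may be counted on *Ppara*. In CPM (read counts scaled to library size with TMM factors), this gene was at 15.7, 10.5 and 9.54 in KP tumors 1 to 3 and at 2.71, 64.6 and 246.1 in KP-PPARαΔ13 tumors 1 to 3. In KPG1 it was at 7.24, 10.5 and 15.3 CPM, and in KPG1-PPARαΔ13 at 8.90, 19.2 and 17.7 CPM. Only 2 of the 6 tumors of doxycycline-fed mice were thus far above the controls, and the log2 fold changes were 3.13 in KP (standard error 1.03, adjusted p = 0.328) and 0.48 in KPG1 (standard error 0.958, adjusted p = 0.88). *Slc2a1* was at 41.7, 35.3 and 57.7 CPM in KP and at 30.2, 63.95 and 39.9 CPM in KPG1, with overlapping groups (log2 fold change -0.006, standard error 0.355, adjusted p = 0.998). In KP-PPARαΔ13 it stood above all other tumors, at 152.5, 115.1 and 108.1 CPM (1.48 against KP on the log2 scale, standard error 0.362, adjusted p = 0.289), and in KPG1-PPARαΔ13 it was at 23.7, 53.2 and 54.55 CPM. Groups are therefore named by their labels throughout, and a value "for PPARαΔ13" is only the difference between the doxycycline-fed and the regular-diet group of one genotype.

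The levels of the 32 genes were compared as TPM, in which counts are divided by transcript length and then scaled to a common total, and covered a wide range. Their mean over the 12 tumors ran from 0.314 TPM for *Cpt1b* to 284.3 TPM for *Etfb*, with a median of 67.0, and 29 of 32 were at 20 TPM or more. The highest 4 were *Etfb*, *Acaa2* (245.5 TPM), *Acadl* (233.4 TPM) and *Hadh* (213.9 TPM), which belong to different steps of the pathway. In KP, KP-PPARαΔ13, KPG1 and KPG1-PPARαΔ13, *Etfb* was at 292.7 ± 35.7, 228.5 ± 6.24, 338.7 ± 64.4 and 277.5 ± 59.2 TPM (SD, n = 3 each). *Acaa2* was at 239.1 ± 92.4, 263.5 ± 143.1, 247.4 ± 41.8 and 232.1 ± 54.4 TPM, and *Acadl* at 220.6 ± 54.3, 224.0 ± 56.8, 280.6 ± 55.9 and 208.5 ± 11.9 TPM in the same order. The SD within a group ran from 6.24 TPM for *Etfb* to 143.1 TPM for *Acaa2*, both in KP-PPARαΔ13, and the order of these genes was not tested. The lowest 3 were *Acad10* (19.1 TPM), *Cpt1c* (8.66 TPM) and *Cpt1b*. Between the lowest and the highest tumor a member differed by 2.33-fold at the median of the 32, from 1.56-fold for *Cpt2* to 6.11-fold for *Cpt1c*.

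**Figure D1:**
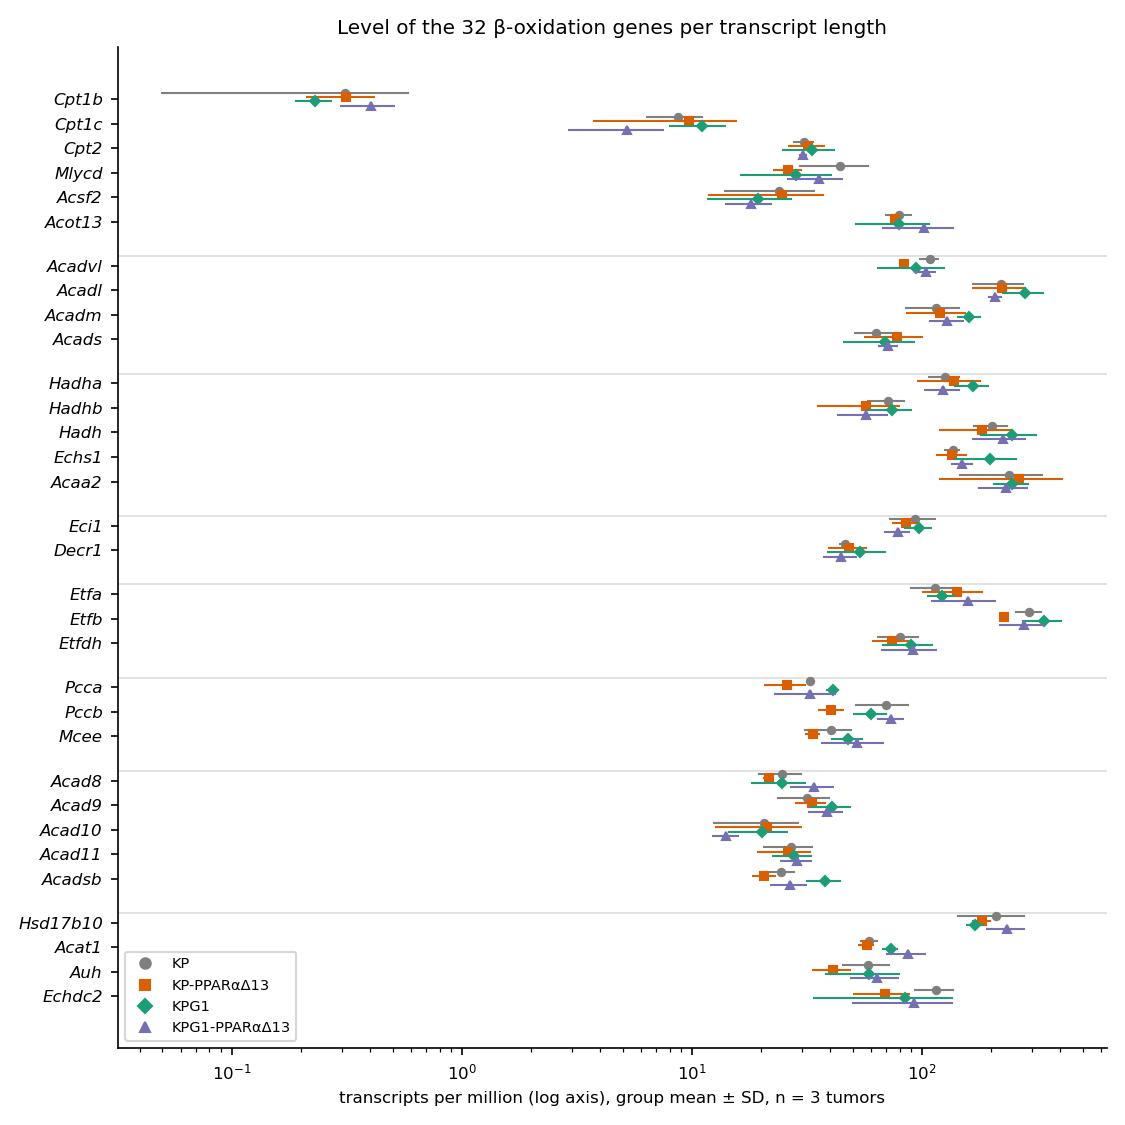
Level of each of the 32 genes in TPM (log axis) as the mean of each group (symbol) with its SD (line, n = 3 tumors), grouped by role from entry at the top to the branched-chain and ketone body steps at the bottom. *Cpt1b* and *Cpt1c* lie far below the others, and *Etfb*, *Acaa2*, *Acadl* and *Hadh* are highest.

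None of the 32 genes passed an adjusted p-value of 0.05 in any comparison. In tumors labelled KP-PPARαΔ13 against KP, 16 members were higher and 16 lower, with a median log2 fold change of 0.004 against -0.008 over all 16527 genes tested. The median of the members was -0.12 without KP replicate 2 and -0.12 with sex as a covariate, and 0.065 without KP replicate 1. The member with the smallest p was *Pccb*, a subunit of propionyl-CoA carboxylase, with a mean of 39.7 ± 6.23 CPM against 65.3 ± 16.6 CPM (SD, n = 3 each). 1 gene in all passed the adjusted threshold, 0.00605% of those tested, and the smallest adjusted p of a member was 0.328. At an unadjusted p under 0.05 stood 1 of the 32 members (3.12%) and 11.4% of all genes, and there were 0 to 2 members when 1 tumor was left out and 3 with sex as a covariate. The 3 KP-PPARαΔ13 tumors all lay below the 3 KP tumors for 3 members, *Etfb*, *Pccb* and *Echdc2*, and above them for 0, against 6.7% and 6.55% of all genes.

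In KPG1-PPARαΔ13 against KPG1, 21 members were lower and 11 higher. The median log2 fold change of the members was -0.20 and that of all genes 0.02. All 5 genes of hydration, the second oxidation and thiolysis had negative log2 fold changes, from -0.21 for *Acaa2* to -0.54 for *Hadha*, while 3 of the 4 branched-chain and ketone body genes were between 0.01 and 0.34. No member passed the adjusted threshold (smallest adjusted p = 0.42), and 1 gene in all did (0.00605%). At an unadjusted p under 0.05 there were 4 members (12.5%), *Acadsb*, *Cpt1c*, *Echs1* and *Hadha*, all lower, and 10.8% of all genes. This count fell to 1 without KPG1-PPARαΔ13 replicate 3 and to 1 with sex as a covariate. The groups lay apart with KPG1-PPARαΔ13 lower for 6 members (18.8%), *Cpt1c*, *Acadl*, *Acadm*, *Hadha*, *Acad10* and *Acadsb*, against 9.41% of all genes, and higher for 1, *Cpt1b*, against 11.2%. Without KPG1 replicate 3, the tumor with the highest summed level, the median was -0.08.

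In KPG1 against KP, 25 members were higher and 7 lower, with a median log2 fold change of 0.24 against -0.03 for all genes. *Acadsb*, a dehydrogenase of short branched acyl-CoA, was at 102.2 ± 8.99 CPM against 60.7 ± 12.6 CPM (SD, n = 3 each). No member passed the adjusted threshold (smallest adjusted p = 0.785), and 6 genes in all did (0.0363%). At an unadjusted p under 0.05 there were 4 members (12.5%), *Acadsb*, *Echs1*, *Acat1* and *Hadha*, all higher, and 6.23% of all genes. Leaving out 1 tumor gave 2 to 7 members, with 7 without KP replicate 1 and 2 without KP replicate 2 or 3. Sex as a covariate gave 2, but cannot separate sex from genotype here, as its effect came from the doxycycline-fed groups alone. All 3 KPG1 tumors lay above all 3 KP tumors for 6 members (18.8%), *Acadm*, *Hadha*, *Pcca*, *Acad9*, *Acadsb* and *Acat1*, against 4.82% of all genes, and below them for 0, against 5.13%. This comparison and the one before it share the KPG1 tumors, so high values there enter both. The median was 0.39 without KP replicate 1 and 0.15 without KPG1 replicate 3.

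In KPG1-PPARαΔ13 against KP-PPARαΔ13, 21 members were higher and 11 lower, with a median log2 fold change of 0.20 against 0.005 for all genes. All 3 genes of the propionyl-CoA branch, all 3 of electron transfer and all 4 branched-chain and ketone body genes had positive values. *Cpt1c*, *Acad10* and *Acsf2* had the lowest ones (-0.92, -0.62 and -0.49). No member passed the adjusted threshold (smallest adjusted p = 0.462), and 5 genes in all did (0.0303%). At an unadjusted p under 0.05 there were 4 members (12.5%), *Pccb*, *Acat1*, *Acad8* and *Mcee*, all higher, and 9.69% of all genes. Without KP-PPARαΔ13 replicate 1 or KPG1-PPARαΔ13 replicate 1 there were 2, and without KP-PPARαΔ13 replicate 3 there were 6. The groups lay apart with KPG1-PPARαΔ13 higher for 6 members (18.8%), *Acadvl*, *Pccb*, *Mcee*, *Acad8*, *Acat1* and *Auh*, against 10.3% of all genes, and lower for 0, against 7.25%. Without KPG1-PPARαΔ13 replicate 1 the median was 0.03.

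The difference between KPG1-PPARαΔ13 and KPG1, minus that between KP-PPARαΔ13 and KP, was tested as an interaction. It was negative for 21 members and positive for 11, with a median of -0.19 against 0.03 for all genes, and ran from -1.39 for *Cpt1c* to 0.89 for *Mlycd*. Without KP-PPARαΔ13 replicate 3 the median was -0.06, and without KP replicate 1 it was -0.32. No member passed the adjusted threshold (smallest adjusted p = 0.384), nor did any gene (0%). At an unadjusted p under 0.05 there were 2 members (6.25%), *Pccb* and *Cpt1c*, in opposite directions, and 11.8% of all genes, and leaving out 1 tumor gave 0 to 4 members. The median standard error of a member was 0.256 in the comparisons of 2 groups and 0.362 here, on the log2 scale, so differences of the size seen were not resolved with 3 tumors per group.

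**Figure D2:**
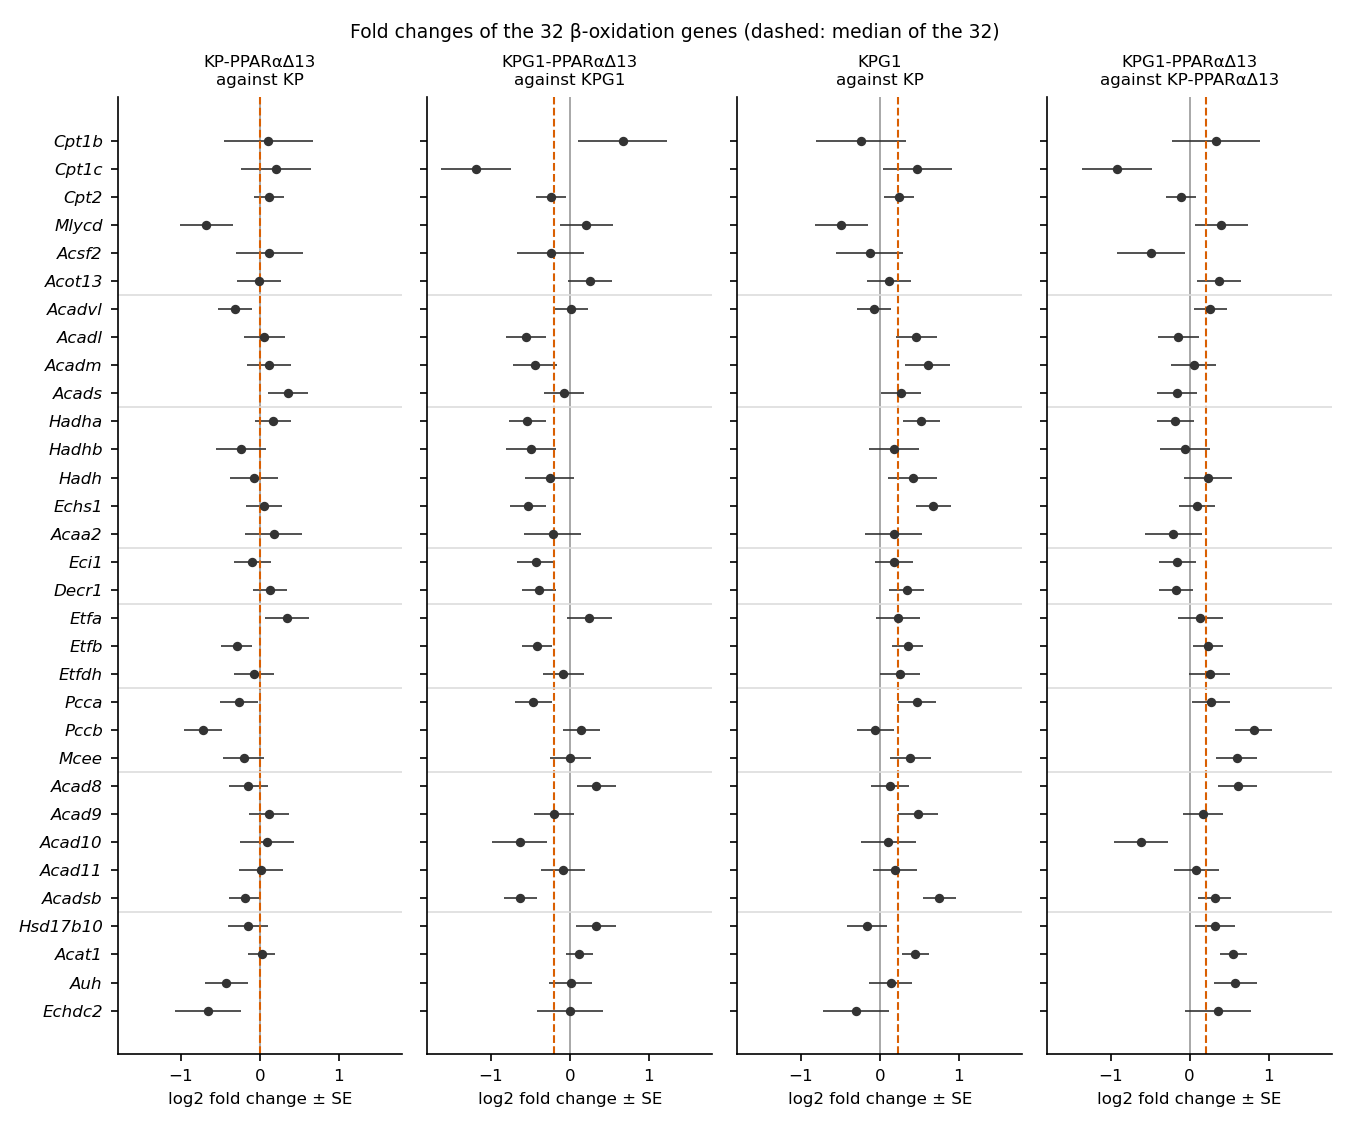
Log2 fold change of each gene with its standard error (horizontal line) in the 4 comparisons of 2 groups, with a dashed line at the median of the 32 genes and a gray line at 0. The median lies at 0.004, -0.20, 0.24 and 0.20 from left to right, and single genes fall on both sides of 0 in every panel.

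Entry and acyl-CoA supply is the first step, and its log2 fold changes had the widest range of the role groups in all 5 comparisons. *Cpt1b* encodes the muscle form of carnitine palmitoyltransferase 1, which makes acyl-carnitines and is inhibited by malonyl-CoA. *Cpt1c* encodes a related protein of the brain that lies in the endoplasmic reticulum and has little of this activity. *Cpt1b* had only 5 to 22 counts per tumor, between 0.171 CPM in KP tumor 1 and 0.667 CPM in KP tumor 2, and passed the filter on low counts on few reads. In GENCODE M21, 81.38% of its exon length overlaps *Gm44502* on the same strand, which was not among the counted genes. *Cpt1c* (ENSMUSG00000007783; mm10 chromosome 7, 44959372 to 44974851, minus strand) was at 9.04, 11.8 and 8.46 CPM in KP, at 18.75, 8.17 and 6.83 CPM in KP-PPARαΔ13, at 13.8, 10.6 and 16.3 CPM in KPG1 and at 3.07, 8.07 and 6.71 CPM in KPG1-PPARαΔ13. All KPG1-PPARαΔ13 tumors lay below all KPG1 tumors, the first of them lowest of all 12, while KP-PPARαΔ13 tumor 1 was highest. On the log2 scale the difference was -1.19 in KPG1 (standard error 0.444, adjusted p = 0.42), 0.20 in KP (standard error 0.438, adjusted p = 0.912), and -1.39 for their difference (standard error 0.622, adjusted p = 0.42). The last value was -0.81 without KP-PPARαΔ13 replicate 1 and -0.49 with sex as a covariate, which also gave -0.77 in KPG1.

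*Mlycd* encodes malonyl-CoA decarboxylase, which removes the inhibitor of carnitine palmitoyltransferase 1. This gene (ENSMUSG00000074064; mm10 chromosome 8, 119394878 to 119411102, plus strand) was at 47.3, 40.7 and 24.9 CPM in KP, at 25.3, 23.8 and 21.3 CPM in KP-PPARαΔ13, at 15.8, 27.0 and 37.7 CPM in KPG1 and at 39.98, 23.7 and 29.3 CPM in KPG1-PPARαΔ13. KP tumors 1 and 2 stood above the rest of KP and KP-PPARαΔ13, and KP tumor 3, from the other KP mouse, lay within the range of the KP-PPARαΔ13 tumors. In KP the difference was -0.68 on the log2 scale (standard error 0.335, adjusted p = 0.474). *Cpt2*, the inner-membrane enzyme that turns acyl-carnitine back into acyl-CoA, varied least, between 27.2 and 42.5 CPM, with its highest value in KPG1 tumor 3. *Acsf2*, an acyl-CoA synthetase, ranged from 15.1 to 47.6 CPM with overlapping groups in all 4 comparisons. *Acot13*, a thioesterase that splits acyl-CoA, ranged from 18.6 CPM in KPG1 tumor 2 to 41.6 CPM in KPG1-PPARαΔ13 tumor 1. In the comparisons of 2 groups, the absolute log2 fold changes of *Cpt2* and *Acot13* were at most 0.24 and 0.37.

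The first oxidation is carried out by acyl-CoA dehydrogenases that differ in the chain length they prefer. *Acadl*, the long-chain enzyme (ENSMUSG00000026003; mm10 chromosome 1, 66830839 to 66863277, minus strand), was at 216.2, 114.9 and 189.2 CPM in KP, at 226.0, 145.3 and 169.9 CPM in KP-PPARαΔ13, at 274.1, 253.9 and 190.3 CPM in KPG1 and at 159.7, 152.2 and 178.4 CPM in KPG1-PPARαΔ13. All 3 KPG1 tumors lay above the 3 KPG1-PPARαΔ13 tumors, and KP tumor 2 was lowest of all. The log2 fold change in KPG1 was -0.55 (standard error 0.256, adjusted p = 0.47), and that in KP 0.06 (standard error 0.255, adjusted p = 0.961). *Acadm*, the medium-chain enzyme, had the same low tumor and was at 125.6, 65.7 and 98.4 CPM in KP, at 74.7, 95.35 and 143.5 CPM in KP-PPARαΔ13, at 155.1, 156.6 and 129.2 CPM in KPG1 and at 123.7, 86.95 and 113.8 CPM in KPG1-PPARαΔ13. KPG1 lay above both KP and KPG1-PPARαΔ13 without overlap (log2 fold change of KPG1 against KP 0.61, standard error 0.281, adjusted p = 0.787). *Acadvl*, the very-long-chain enzyme of the inner membrane, and *Acads*, the short-chain enzyme, did not follow this order. Both were highest in KPG1 tumor 3 (120.7 and 77.3 CPM), and their log2 fold changes in the comparisons of 2 groups lay between -0.32 and 0.36. Of the exon length of *Acadvl*, 42.85% overlaps *Dvl2* on the opposite strand, and whether counting used strand is not given.

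The following step adds water to the double bond, oxidizes the product again and splits off acetyl-CoA. For long chains this is done by the trifunctional protein, whose α and β subunits are encoded by *Hadha* and *Hadhb*. The 2 genes lie head to head on chromosome 5 with 85 bases between their ends in GENCODE M21. The window of 300 bases around the start of *Hadhb*, chr5:30155003-30155302 on the plus strand (RefSeq, GRCm38.p6), is shown because it holds the space they share, printed in capitals:
Hadhb: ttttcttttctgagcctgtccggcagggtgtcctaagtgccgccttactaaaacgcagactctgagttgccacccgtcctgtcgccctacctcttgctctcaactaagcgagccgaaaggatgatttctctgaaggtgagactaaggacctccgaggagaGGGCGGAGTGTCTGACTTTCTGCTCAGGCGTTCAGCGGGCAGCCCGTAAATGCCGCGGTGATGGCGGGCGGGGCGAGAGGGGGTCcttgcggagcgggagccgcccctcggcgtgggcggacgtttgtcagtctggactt

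*Hadha* (ENSMUSG00000025745; mm10 chromosome 5, 30118304 to 30155162, minus strand) was at 247.5, 175.2 and 195.1 CPM in KP, at 273.6, 256.5 and 162.8 CPM in KP-PPARαΔ13, at 294.7, 267.1 and 326.2 CPM in KPG1 and at 234.9, 164.3 and 211.6 CPM in KPG1-PPARαΔ13. The 3 KPG1 tumors stood above all tumors of KP and of KPG1-PPARαΔ13, whose ranges overlapped each other. The log2 fold change was 0.52 for KPG1 against KP (standard error 0.233, adjusted p = 0.787), -0.54 for PPARαΔ13 in KPG1 (standard error 0.233, adjusted p = 0.449) and 0.17 for PPARαΔ13 in KP (standard error 0.232, adjusted p = 0.855). These last 2 differed by -0.71 (standard error 0.329, adjusted p = 0.43), or by -1.17 with sex as a covariate.

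*Hadhb* cannot be read from its own count alone. Its processed pseudogene *Gm13910* is 99.79% identical to it over 1428 aligned bases, and the 12 tumors together had 19960 counts on *Hadhb* and 19673 on *Gm13910*. The share of these counts on *Hadhb* was 48.0% to 57.9% in 10 tumors, but 30.5% in KP-PPARαΔ13 tumor 1 and 32.3% in KPG1-PPARαΔ13 tumor 1. In these 2 tumors *Hadhb* was lowest, at 26.7 and 35.5 CPM, whereas *Gm13910* was at 60.97 and 74.5 CPM. Summed, the pair was at 126.0, 92.35 and 95.1 CPM in KP, at 87.7, 115.7 and 115.4 CPM in KP-PPARαΔ13, at 143.8, 121.8 and 134.9 CPM in KPG1 and at 110.1, 84.2 and 108.2 CPM in KPG1-PPARαΔ13. The log2 fold change of *Hadhb* in KP was -0.24 alone (standard error 0.315, adjusted p = 0.84) and 0.03 with both counted as 1 gene (adjusted p = 0.978). How reads were divided between the 2 was not tested.

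**Figure D3:**
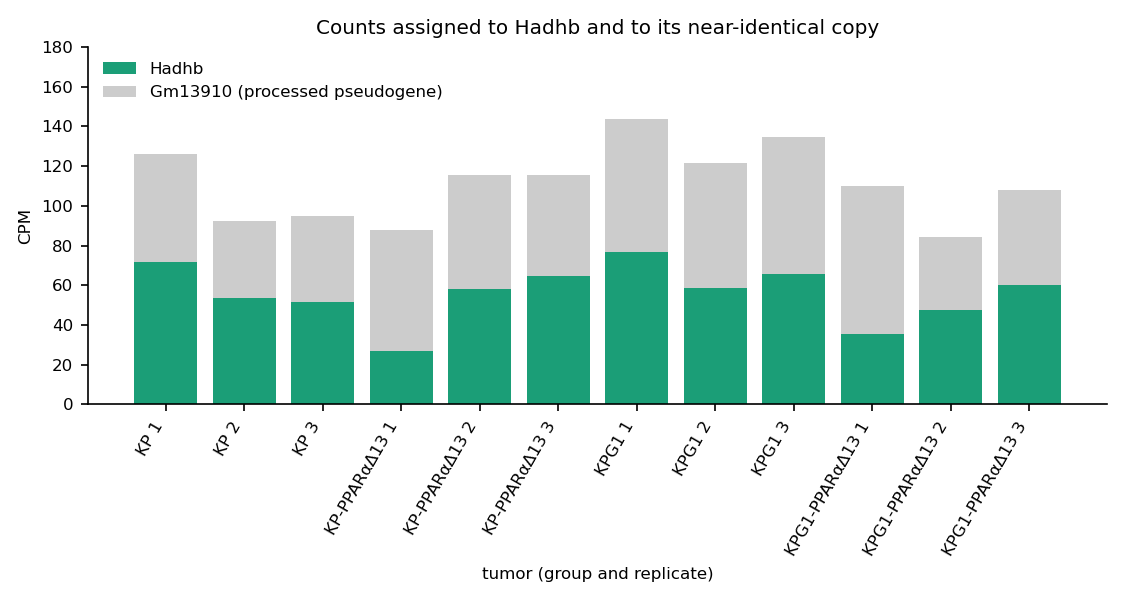
CPM assigned to Hadhb (green) and to its processed pseudogene Gm13910 (gray), stacked for each of the 12 tumors. The first tumors of KP-PPARαΔ13 and of KPG1-PPARαΔ13 have the lowest green part (26.7 and 35.5 CPM) without a lower gray part.

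*Echs1* encodes the short-chain enoyl-CoA hydratase, which adds water to chains that the trifunctional protein has shortened. This gene (ENSMUSG00000025465; mm10 chromosome 7, 140105710 to 140116476, minus strand) was at 95.55, 74.1 and 88.6 CPM in KP, at 96.4, 72.95 and 98.5 CPM in KP-PPARαΔ13, at 168.9, 149.8 and 94.5 CPM in KPG1 and at 102.6, 96.6 and 86.8 CPM in KPG1-PPARαΔ13. KPG1 tumors 1 and 2 stood far above the other 10 tumors, and KPG1 tumor 3, from the other KPG1 mouse, lay among them. For KPG1 against KP the log2 fold change was 0.68 (standard error 0.225, adjusted p = 0.785) and -0.53 for PPARαΔ13 in KPG1 (standard error 0.224, adjusted p = 0.44). *Hadh*, the dehydrogenase of the second oxidation for medium and short chains (ENSMUSG00000027984; mm10 chromosome 3, 131233419 to 131272101, minus strand), was at 177.4, 114.7 and 148.6 CPM in KP, at 93.6, 124.3 and 201.4 CPM in KP-PPARαΔ13, at 159.5, 178.9 and 249.2 CPM in KPG1 and at 211.4, 140.8 and 140.0 CPM in KPG1-PPARαΔ13. Its groups overlapped in all 4 comparisons, with log2 fold changes between -0.26 and 0.42. *Acaa2*, the thiolase that ends the round (ENSMUSG00000036880), was at 218.7, 111.3 and 113.1 CPM in KP, at 264.4, 123.8 and 111.2 CPM in KP-PPARαΔ13, at 146.1, 161.6 and 192.6 CPM in KPG1 and at 180.7, 113.5 and 137.5 CPM in KPG1-PPARαΔ13. Tumor 1 stood far above the other 2 in KP and in KP-PPARαΔ13, and the groups overlapped in all 4 comparisons.

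PPARα with its partner RXR is known to bind pairs of the motif AGGTCA with 1 base between them. The windows from 250 bases before to 50 bases after the start, taken from RefSeq, were available for 26 of the 32 members and were searched on both strands. A single AGGTCA was found in 5 of 26 members, *Acadm*, *Acadvl*, *Cpt1c*, *Echs1* and *Pcca*, and in 18.13% of 27025 genes. The repeat AGGTCANAGGTCA was in 0 of the 26 and in 0.05% of all genes, and holds the single motif on both sides. The windows of *Echs1* (chr7:140116372-140116671, minus strand) and *Acadm* (chr3:153944594-153944893, minus strand) are shown as the 2 members with this motif whose KPG1 values were highest against KP, with the motif in capitals (GRCm38.p6, read along the gene):
Echs1: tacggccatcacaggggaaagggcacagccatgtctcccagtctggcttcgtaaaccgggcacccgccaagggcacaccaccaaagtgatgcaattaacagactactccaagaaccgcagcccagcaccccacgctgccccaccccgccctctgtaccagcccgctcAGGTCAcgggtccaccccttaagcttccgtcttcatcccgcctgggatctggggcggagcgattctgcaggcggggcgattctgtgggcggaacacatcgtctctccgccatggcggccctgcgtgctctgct
Acadm: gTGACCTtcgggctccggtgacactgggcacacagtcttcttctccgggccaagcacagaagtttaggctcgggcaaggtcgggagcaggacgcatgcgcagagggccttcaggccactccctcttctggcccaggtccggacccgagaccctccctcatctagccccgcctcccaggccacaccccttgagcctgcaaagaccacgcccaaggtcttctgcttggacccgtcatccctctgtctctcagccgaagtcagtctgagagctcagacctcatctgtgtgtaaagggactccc

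In *Echs1* the motif begins 83 bases before the start. In *Acadm* it lies at the far end of the window and reads TGACCT, the same letters on the other strand. These are matches of letters and not measured binding.

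Fatty acids with double bonds need 2 further enzymes. *Eci1*, which shifts a double bond into the position that the pathway can use, ranged from 29.5 CPM in KP tumor 2 to 54.8 CPM in KPG1 tumor 3, and *Decr1*, which reduces conjugated double bonds, from 46.4 to 81.6 CPM. Both had negative log2 fold changes for PPARαΔ13 in KPG1 (-0.43 and -0.39, standard errors 0.236 and 0.218, adjusted p = 0.532 and 0.544) and positive ones for KPG1 against KP (0.18 and 0.34). In KP the value was -0.09 for *Eci1* and 0.13 for *Decr1*.

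Electrons of the first oxidation pass through the electron transfer flavoprotein, with subunits encoded by *Etfa* and *Etfb*, to the ubiquinone oxidoreductase encoded by *Etfdh*. *Etfb* (ENSMUSG00000004610; mm10 chromosome 7, 43444083 to 43457800, plus strand) was at 116.7, 103.7 and 96.4 CPM in KP, at 85.9, 82.6 and 89.7 CPM in KP-PPARαΔ13, at 110.1, 135.7 and 158.6 CPM in KPG1 and at 124.0, 95.3 and 83.97 CPM in KPG1-PPARαΔ13. The KP-PPARαΔ13 tumors were close together and all below KP, with a difference of -0.29 on the log2 scale (standard error 0.191, adjusted p = 0.6), and the value in KPG1 was -0.41 with overlapping groups (standard error 0.191, adjusted p = 0.468). For the other subunit, *Etfa*, the values were 0.34 and 0.25 (standard errors 0.283 and 0.282). *Etfa* and *Etfdh* were both highest in KPG1-PPARαΔ13 tumor 1 (122.5 and 114.8 CPM) and lowest in KP tumor 2 (47.4 and 54.9 CPM). Of the exon length of *Etfb*, 53.01% overlaps *Gm45233*, which was not among the counted genes.

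Propionyl-CoA from odd chains and from branched-chain amino acids is carboxylated by an enzyme with subunits from *Pcca* and *Pccb* and then converted by *Mcee*, the methylmalonyl-CoA epimerase. *Pccb* (ENSMUSG00000032527; mm10 chromosome 9, 100982032 to 101034898, minus strand) was at 83.1, 62.4 and 50.25 CPM in KP, at 40.0, 33.3 and 45.8 CPM in KP-PPARαΔ13, at 48.3, 77.2 and 62.99 CPM in KPG1 and at 68.5, 76.9 and 63.3 CPM in KPG1-PPARαΔ13. The KP-PPARαΔ13 tumors were the lowest 3 of the 12, below KP and below KPG1-PPARαΔ13 without overlap. PPARαΔ13 in KP gave a value of -0.72 on the log2 scale (standard error 0.237, adjusted p = 0.328) and 0.15 in KPG1 (standard error 0.235, adjusted p = 0.845), with a difference of 0.86 (standard error 0.334, adjusted p = 0.384). KPG1-PPARαΔ13 against KP-PPARαΔ13 gave 0.81 (standard error 0.237, adjusted p = 0.462). The partner subunit *Pcca* did not have this pattern, with log2 fold changes of -0.26 in KP and -0.46 in KPG1 (standard error 0.235 each), and its KPG1 tumors (43.0, 50.6 and 48.4 CPM) stood above all KP tumors (34.9, 31.7 and 35.8 CPM). *Mcee* was at 10.9 to 12.2 CPM in KP-PPARαΔ13 and at 13.7 to 23.4 CPM in KPG1-PPARαΔ13 (log2 fold change 0.59, standard error 0.26, adjusted p = 0.505).

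**Figure D4:**
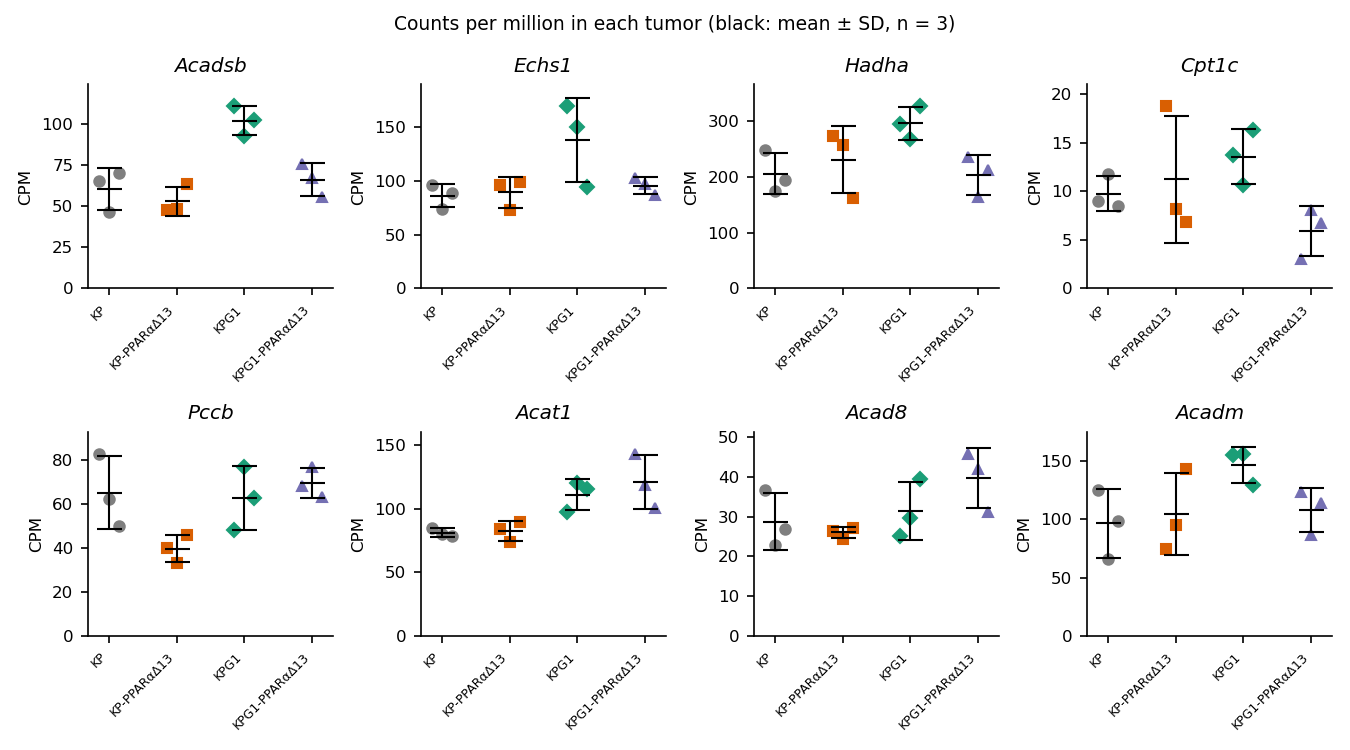
CPM of 8 members in each tumor (symbols) with the group mean and SD (black, n = 3), on axes that start at 0. The 3 KPG1 tumors are the highest of all for Acadsb and lie above KP and KPG1-PPARαΔ13 for Hadha and Acadm, the 3 KP-PPARαΔ13 tumors are lowest for Pccb, and both KPG1 groups are above both KP groups for Acat1.

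Further acyl-CoA dehydrogenases act on branched or very long substrates. *Acadsb*, for short branched chains such as those from isoleucine (ENSMUSG00000030861; mm10 chromosome 7, 131410601 to 131448944, plus strand), was at 65.2, 46.4 and 70.4 CPM in KP, at 47.98, 48.2 and 63.4 CPM in KP-PPARαΔ13, at 110.9, 92.97 and 102.8 CPM in KPG1 and at 75.8, 67.5 and 55.5 CPM in KPG1-PPARαΔ13. The 3 KPG1 tumors were the highest of all 12. KPG1 against KP gave a value of 0.75 on the log2 scale (standard error 0.208, adjusted p = 0.785) and -0.63 for PPARαΔ13 in KPG1 (standard error 0.208, adjusted p = 0.42). *Acad8*, the isobutyryl-CoA dehydrogenase of valine breakdown (ENSMUSG00000031969; mm10 chromosome 9, 26974135 to 26999566, minus strand), was at 36.6, 22.7 and 26.9 CPM in KP, at 26.5, 24.4 and 27.2 CPM in KP-PPARαΔ13, at 25, 29.8 and 39.5 CPM in KPG1 and at 45.9, 42.0 and 31.2 CPM in KPG1-PPARαΔ13. All KPG1-PPARαΔ13 tumors lay above KP-PPARαΔ13 (log2 fold change 0.61, standard error 0.245, adjusted p = 0.499), and the value for PPARαΔ13 was -0.14 in KP and 0.34 in KPG1. *Acad9*, which is also needed to assemble respiratory complex I, was lowest in KP tumor 2 (32.96 CPM) and highest in KPG1 tumor 3 (83.2 CPM). *Acad10* ranged from 18.7 to 43.8 CPM and *Acad11* from 26.3 to 49.9 CPM. The log2 fold change of *Acad10* for PPARαΔ13 in KPG1 was -0.64 (standard error 0.346, adjusted p = 0.531). *Acad10* is 95.29% identical to *Acad12* over 1614 bases, with 10923 and 2792 counts, so its value is uncertain.

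The last members act where β-oxidation meets branched-chain amino acids and ketone bodies. *Acat1*, the mitochondrial acetoacetyl-CoA thiolase (ENSMUSG00000032047; mm10 chromosome 9, 53580522 to 53610382, minus strand), was at 85.1, 80.1 and 78.65 CPM in KP, at 84.2, 73.95 and 89.8 CPM in KP-PPARαΔ13, at 97.7, 120.7 and 115.3 CPM in KPG1 and at 143.5, 118.5 and 101.0 CPM in KPG1-PPARαΔ13. All 6 tumors with floxed *Slc2a1* lay above all 6 others, on either diet. Their log2 fold change was 0.45 on the regular diet (standard error 0.172, adjusted p = 0.785) and 0.55 with doxycycline (standard error 0.172, adjusted p = 0.47), and for PPARαΔ13 it was 0.02 in KP and 0.12 in KPG1 (standard error 0.171 each). *Echdc2*, of the enoyl-CoA hydratase family (ENSMUSG00000028601; mm10 chromosome 4, 108165437 to 108179308, plus strand), was at 64.4, 65.5 and 51.6 CPM in KP, at 43.8, 25.9 and 45.6 CPM in KP-PPARαΔ13, at 25.8, 41.4 and 80.3 CPM in KPG1 and at 30.2, 72.7 and 44.5 CPM in KPG1-PPARαΔ13. The KP-PPARαΔ13 tumors lay below KP without overlap (log2 fold change -0.66, standard error 0.417, adjusted p = 0.592, and -0.44 without KP-PPARαΔ13 replicate 2 or -1.28 with sex as a covariate). In KPG1 and KPG1-PPARαΔ13 the SD was 28.1 and 21.6 CPM, with means of 49.2 and 49.1 CPM. In KP and KP-PPARαΔ13 the SD was 7.7 and 10.9 CPM, with means of 60.5 and 38.4 CPM. *Auh*, the methylglutaconyl-CoA hydratase of leucine breakdown, ranged from 17.8 CPM in KP-PPARαΔ13 tumor 2 to 44.8 CPM in KPG1 tumor 3. *Hsd17b10*, a dehydrogenase of isoleucine breakdown, ranged from 53.9 CPM in KP tumor 1 to 112.1 CPM in KPG1-PPARαΔ13 tumor 3, and its groups overlapped in all 4 comparisons.

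Within a group, single tumors carried many of the members together. Summed over the 32 genes, the level was 2451, 1810 and 2082 CPM in KP, 2199, 1905 and 2107 CPM in KP-PPARαΔ13, then 2484, 2568 and 2833 CPM in KPG1 and 2470, 2050 and 2119 CPM in KPG1-PPARαΔ13. The 3 KPG1 tumors had the highest sums of the 12, though KPG1 tumor 1 (2484 CPM) was close to KPG1-PPARαΔ13 tumor 1 (2470 CPM). KPG1 tumors 1 and 2 were above the median of the 12 tumors for 19 and 24 members. KPG1 tumor 3 was above the median of the 12 tumors for 28 of 32 members and held the highest value for 11. KP tumor 2 and KP-PPARαΔ13 tumor 2 each held the lowest value for 8, and were above the median for 10 and 6. KP tumor 1 and KPG1-PPARαΔ13 tumor 1 were above the median for 21 members each, against 10 in each of the other KP tumors and 13 in each of the other KPG1-PPARαΔ13 tumors.

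**Figure D5:**
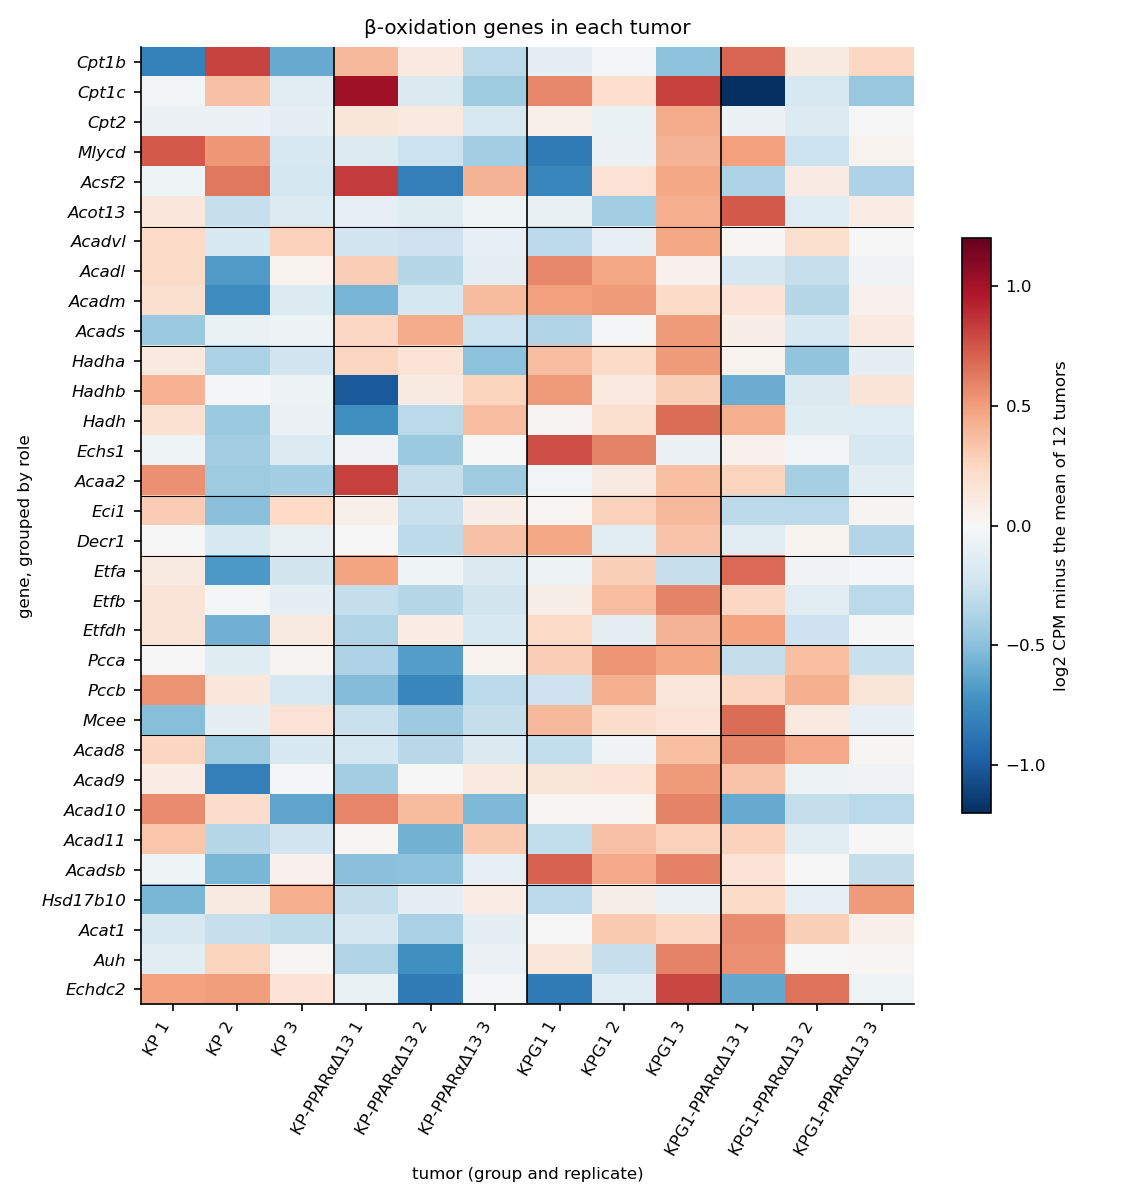
Log2 CPM of each gene in each tumor minus the mean of that gene over the 12 tumors, with red above and blue below the mean, black vertical lines between groups and horizontal lines between roles. The column of KPG1 tumor 3 is mostly red (28 of 32 genes above their median) and that of KP-PPARαΔ13 tumor 2 mostly blue (6 of 32).

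Markers of alveolar type 2 cells moved with these sums in part. Of the 10 markers, among which *Sftpc* was the most abundant and none was at 0, 9 had a negative log2 fold change for PPARαΔ13 in KPG1 (median -0.89), and 8 a positive one for KPG1 against KP (median 0.33), with 0 past the adjusted threshold. They summed to 49690, 28030 and 59800 CPM in KP, to 24140, 26610 and 60790 CPM in KP-PPARαΔ13, to 48480, 77690 and 66580 CPM in KPG1 and to 26130, 34780 and 41030 CPM in KPG1-PPARαΔ13. KPG1 thus lay above KPG1-PPARαΔ13 without overlap for these markers as well as for the summed members. For the members the nearest tumors were at 2484 and 2470 CPM. KP tumor 2 was the lowest of KP for both sums. Within KPG1-PPARαΔ13, however, tumor 1 had the lowest marker sum and the highest member sum. In KP and in KP-PPARαΔ13, the highest marker sum was in tumor 3 and the highest member sum in tumor 1. Against KP, 9 of the 10 markers were also lower in KP-PPARαΔ13 (median -0.44), where the median of the members was 0.004. The 5 markers of alveolar type 1 cells, with *Ager* the most abundant, were all lower in KPG1-PPARαΔ13 than in KPG1 (sums of 818.4 ± 215.3 and 2039 ± 334.9 CPM, SD, n = 3 each). In the other genotype all 5 were higher in KP-PPARαΔ13 than in KP (median log2 fold change 0.33). In KP they summed to 2211, 177.4 and 1886 CPM, so KP tumor 2 stood apart there too. Markers of club cells, the cells for which the promoter of rtTA is named, summed to only 34.2 to 377.4 CPM per tumor. The 8 leukocyte markers, with *Cd68* the most abundant, summed to 33.6 to 79.0 CPM, and the 6 of them that were tested were all lower in KPG1 than in KP (median -0.57) and in KPG1-PPARαΔ13 than in KP-PPARαΔ13 (median -0.35). Cardiac and striated muscle markers summed to 3.07 to 22.9 CPM and adipocyte markers to at most 4.81 CPM, with *Lep* at 0 in all tumors. Smooth muscle and pericyte markers, with *Acta2* the most abundant, summed to 35.7 to 318.2 CPM. The 6 fibroblast markers, with *Col1a2* the most abundant, summed to 410.3, 529.1 and 265.9 CPM in KP-PPARαΔ13, above the 132.7, 112.6 and 241.4 CPM in KP without overlap (median log2 fold change 1.17), and all 6 were lower in KPG1-PPARαΔ13 than in KP-PPARαΔ13 (median -1.25). The 6 endothelial markers, with *Vwf* the most abundant, were all lower in KPG1-PPARαΔ13 than in KPG1 (median -0.68) and than in KP-PPARαΔ13 (median -0.88). Against KP, 5 of the 6 were higher in KP-PPARαΔ13 and 1 was lower (median 0.14). Mesothelial markers, with *Msln* the most abundant, summed to 158.8, 244.9 and 294.6 CPM in KP-PPARαΔ13 and to between 2.94 and 94.7 CPM in the other tumors. The 5 erythroid markers, with *Hbb-bs* the most abundant, summed to 1320, 849.9 and 903.5 CPM in KP-PPARαΔ13 and 583.1, 319.1 and 764.7 CPM in KP. Of these, 1 passed the adjusted threshold in KPG1-PPARαΔ13 against KPG1 and 1 in KPG1 against KP, and no other marker of the 12 lists passed it. The part of these cells in the values of the members was not tested.

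Genes that feed or surround the pathway were counted on separate lists. Of 14 genes of fatty acid activation and carnitine transport, 0 passed the adjusted threshold in any comparison. Among them is *Cpt1a*, the main form of carnitine palmitoyltransferase 1 outside muscle and brain and the step that limits entry, at 108.8, 109.8 and 118.3 CPM in KP and 145.5, 86.9 and 217.3 CPM in KP-PPARαΔ13. In KPG1 it was at 190.6, 258.7 and 153.8 CPM and in KPG1-PPARαΔ13 at 107.1, 103.6 and 157.1 CPM. All KPG1 tumors were above KP (log2 fold change 0.84, standard error 0.313, adjusted p = 0.785), the value for PPARαΔ13 was -0.71 in KPG1 (standard error 0.312, adjusted p = 0.453) and 0.42 in KP (standard error 0.311, adjusted p = 0.657), and the groups of both PPARαΔ13 comparisons overlapped. For *Acsl5*, an acyl-CoA synthetase, the corresponding values were 1.13, -0.69 and 0.86 (standard errors 0.41, 0.407 and 0.408, adjusted p = 0.785, 0.562 and 0.462).

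Malonyl-CoA, the inhibitor of carnitine palmitoyltransferase 1, is made by the enzymes of *Acaca* and *Acacb*. *Acaca* was at 179.0, 146.4 and 184.1 CPM in KP and, in KP-PPARαΔ13, at 76.2, 67.5 and 101.0 CPM, without overlap (log2 fold change -1.06, standard error 0.229, adjusted p = 0.256), and it was at 113.8, 132.1 and 185.5 CPM in KPG1 and 84.5, 114.0 and 102.6 CPM in KPG1-PPARαΔ13 (log2 fold change -0.52, standard error 0.227, adjusted p = 0.453). *Acacb* was at 56.96, 90.97 and 77.0 CPM in KPG1 and at 13.3, 5.76 and 26.2 CPM in KPG1-PPARαΔ13 (log2 fold change -2.31, standard error 0.62, adjusted p = 0.42). In KP it was at 61.8, 63.9 and 16.7 CPM and in KP-PPARαΔ13 at 47.7, 16.5 and 39.6 CPM, with overlapping groups (-0.46 on the log2 scale, standard error 0.591, adjusted p = 0.838).

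The other lists had 0 genes past the adjusted threshold as well. Of 12 tested genes among further mitochondrial acyl-CoA enzymes, 10 were lower for PPARαΔ13 in KP (median -0.31) and 6 in KPG1 (median 0.001). Against KP-PPARαΔ13, whose tumors enter the first of these values too, 10 were higher in KPG1-PPARαΔ13 (median 0.35), with *Mccc2*, a subunit of methylcrotonyl-CoA carboxylase of leucine breakdown, at 0.91 on the log2 scale (standard error 0.291, adjusted p = 0.475). Of 14 peroxisomal β-oxidation genes, 8 were lower for PPARαΔ13 in KP and 9 in KPG1 (median -0.07 and -0.28). Of 16 tested PPARα target genes, which include *Cpt1a* and *Ehhadh*, 9 were lower in KP and 7 in KPG1 (median -0.17 and 0.13), and they included *Angptl4*, a secreted lipase inhibitor, at 1.55 on the log2 scale in KP (standard error 0.528, adjusted p = 0.335) with no overlap. Of 13 receptors and coactivators, 7 were lower in each genotype (median -0.004 and -0.007), and of 4 ketone body enzymes 3 in each (median -0.24 and -0.42). In contrast to the members, 14 of 18 other mitochondrial proteins, such as *Uqcrc1* of respiratory complex III, were higher in KPG1-PPARαΔ13 than in KPG1 (median 0.19). In KP-PPARαΔ13 against KP, 12 of the 18 were higher (median 0.16), where 16 members were higher and 16 lower. These 18 genes summed to 4059 ± 182.6 CPM in KP, 4746 ± 1246 CPM for KP-PPARαΔ13, 4340 ± 418.6 CPM in KPG1 and 4582 ± 484.6 CPM in KPG1-PPARαΔ13 (mean ± SD of 3 tumors), where the 32 members summed to 2115 ± 321.7, 2070 ± 150.6, 2628 ± 181.9 and 2213 ± 225.4 CPM. The lists share genes and were not tested against each other.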

How the data were processed

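Per the labels and the study's methods, the authors prepared poly(A) RNA with a stranded kit, trimmed reads with Cutadapt and aligned them to mm10 with HISAT2. The deposited values are read counts by gene, 1 file for every tumor and 1 joint table, and all 12 files equalled the table. The submitters' processing notes also name featureCounts 1.4.4 and edgeR; the annotation and strand setting of counting are not given in the sources used here. A deposited table of log2 values was not used.

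The counts were fitted with edgeR 4.0.16 in R 4.3.3 (TMM, filterByExpr by group, glmQLFit and glmQLFTest, one fit of the 12 tumors with 8 residual degrees of freedom), with Benjamini-Hochberg adjustment over 16527 genes at 0.05. Every adjusted p in the text is from this fit unless another tool is named, and standard errors are the log2 fold change over the square root of F. CPM used TMM library sizes. TPM was computed from 1 transcript per gene of GENCODE M21, which held 96.4% of the genes and 99.75% of the counts. Near-identical copies were found with BLAST+ 2.17.0 (at least 95% identity over 500 bases). The fit was run on simulated data with known changes, where it missed most of the 2-fold ones.

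Values in every tumor are given for the 3 members with the smallest p in each of the 5 comparisons and the 4 with the highest TPM. From each list of other pathway genes, the 2 with the smallest p in a comparison may be named. Other per-tumor values (*Acadm*, *Pcca*, the *Hadhb* pair) and the promoters shown were chosen after the values were seen. The members, lists and comparisons were chosen with earlier results of these data known. Depth limits only low genes such as *Cpt1b*, and the precision is set by the spread between tumors. Some items, among them part of the shared genotype, are not reported here.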

Additional observations from a re-analysis of the deposited data

How the results depend on the processing

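With 3 tumors per group, part of them from shared mice, single members of small fold change were not resolved, and diet cannot be told apart from induction, nor sex from genotype in KPG1 against KP. The fit with sex as a covariate does not change this, because its sex effect came from the doxycycline-fed groups alone. The number of the 32 genes past the adjusted threshold was 0 in all 5 comparisons under upper-quartile scaling, DESeq2 1.42.0, limma 3.58.1 voom, no filter on low counts, sex as a covariate, the replicate block, counts added up within a mouse, omission of each tumor, and *Hadhb* counted with *Gm13910*, an alternative added after the data were seen. The smallest adjusted p of a member in any of these was 0.146, 0.163, 0.136, 0.111 and 0.261 in the order KP-PPARαΔ13 against KP, KPG1-PPARαΔ13 against KPG1, KPG1 against KP, KPG1-PPARαΔ13 against KP-PPARαΔ13, and the interaction. DESeq2 called 372, 211, 60, 155 and 286 of all genes in that order, against 1, 1, 6, 5 and 0 in edgeR. These became 1, 0, 5, 5 and 0 with voom, 2, 1, 5, 5 and 0 without the filter, 0, 1, 2, 2 and 0 with sex, 0, 0, 2, 2 and 0 with 1 sample per mouse, and 0 to 1, 0 to 2, 2 to 3, 2 to 4 and 0 when 1 tumor was left out.

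The median log2 fold change of the members changed sign only in KP-PPARαΔ13 against KP, where it was -0.12 with sex as a covariate and -0.12 to 0.065 when 1 tumor was left out. Leaving out 1 tumor gave -0.279 to -0.075 for PPARαΔ13 in KPG1, 0.15 to 0.39 for KPG1 against KP, 0.034 to 0.271 for KPG1-PPARαΔ13 against KP-PPARαΔ13, and -0.315 to -0.061 for the interaction. The ends nearest 0 came without KPG1 replicate 3, KPG1 replicate 3, KPG1-PPARαΔ13 replicate 1 and KP-PPARαΔ13 replicate 3. With 1 sample per mouse, the medians were 0.05, -0.30, 0.33, 0.13 and -0.30. The 15 fold changes given with the smallest p kept their sign under all alternatives, but 4 of them, of *Cpt1c*, *Echdc2* and *Hadha*, moved by over 1.5 times with sex as a covariate or without 1 tumor. *Hadhb* in KP changed sign, from -0.241 to 0.025, when counted with *Gm13910*; single values of the other members were not followed across alternatives. Replicate numbers were shared between groups, but tumors with the same number did not deviate together (correlations from -0.19 to 0.127), and the replicate block gave member medians of 0.01, -0.21, 0.27, 0.18 and -0.17 in the same order of comparisons. It changed the number of all genes called to 0, 2, 4, 3 and 0.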
